A study of Mus musculus with 6 samples.

Results

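The Fanconi anaemia genes examined here encode the core of a DNA crosslink repair pathway, and were measured in mature thymic natural killer T (NKT) cells that lack DOCK8 and in their wild type counterparts. The family was chosen by the measured signal of 1 gene, Fanci, which read lower in the DOCK8-deficient cells, and its 10 members were then taken by name: Fanca, Fancb, Fancc, Fancd2, Fance, Fancf, Fancg, Fanci, Fancl and Fancm. Of these, 9 had a probe annotated to that symbol alone, 22 probes in all, among 19057 genes with a named probe, and Fancf was not analysed here. A probe counted as detected when its detection value, the scanner software's p-value against negative control beads, was under 0.05 on all 3 arrays of at least 1 group. By this rule 10 probes of 6 genes were detected (Fanca, Fancc, Fance, Fanci, Fancl and Fancm) and 12 probes were not. No probe of Fancb, Fancd2 or Fancg was detected.

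NKT cells carry a T cell receptor that binds lipids presented by CD1d, and they mature in the thymus. All 6 samples were CD44+, NK1.1+ thymic NKT cells of C57BL/6 mice, 3 replicates from wild type animals and 3 from the DOCK8-deficient strain named Captain Morgan, which the titles call knockout. DOCK8 activates the GTPase CDC42 and so shapes actin in leukocytes. The labels name no treatment and no age, and leave unsaid what a replicate is, a single mouse or pooled mice. The p-values therefore reflect only how these 6 samples spread, which may be technical. RNA was hybridised to Illumina bead arrays, 1 array per sample.

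In the pathway, FANCA, FANCB, FANCC, FANCE, FANCF, FANCG and FANCL form a nuclear ubiquitin ligase, with FANCL as its catalytic subunit, and FANCM anchors the complex to damaged DNA. The ligase attaches 1 ubiquitin to FANCI and to its partner FANCD2, and the modified pair recruits nucleases and recombination factors to an interstrand crosslink. The pathway is best known from dividing cells, where it acts when replication forks meet a crosslink.

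RefSeq promoter sequences (GRCm38.p6, 250 bases before to 50 after the annotated start) were found for 9 of the 10 genes. The promoters of 3 are shown because their transcripts stood for the different behaviours described below: Fanci read lower, Fanca read higher and the 4 detected Fancl probes differed little. Capitals mark 3 motifs searched on both strands, chosen with the sequences and the results known: TTCCCGC, a form of the E2F site of S phase genes, the CCAAT box, and TTTGAA, the cell cycle homology region. None of the 3 motifs overlapped another in these windows.
Fanci, chr7:79392088-79392387, plus strand: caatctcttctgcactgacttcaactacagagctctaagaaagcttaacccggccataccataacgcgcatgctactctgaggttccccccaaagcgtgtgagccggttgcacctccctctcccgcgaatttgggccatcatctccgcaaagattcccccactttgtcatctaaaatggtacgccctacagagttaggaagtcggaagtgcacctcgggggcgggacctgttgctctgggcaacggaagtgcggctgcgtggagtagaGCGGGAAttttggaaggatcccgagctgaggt
Fanca, chr8:123318527-123318826, minus strand: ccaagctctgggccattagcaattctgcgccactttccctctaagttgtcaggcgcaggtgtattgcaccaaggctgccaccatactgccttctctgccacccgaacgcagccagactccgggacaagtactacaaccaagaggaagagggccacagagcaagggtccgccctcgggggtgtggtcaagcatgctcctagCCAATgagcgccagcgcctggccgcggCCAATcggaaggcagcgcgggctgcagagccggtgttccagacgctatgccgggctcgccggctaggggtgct
Fancl, chr11:26386834-26387133, plus strand: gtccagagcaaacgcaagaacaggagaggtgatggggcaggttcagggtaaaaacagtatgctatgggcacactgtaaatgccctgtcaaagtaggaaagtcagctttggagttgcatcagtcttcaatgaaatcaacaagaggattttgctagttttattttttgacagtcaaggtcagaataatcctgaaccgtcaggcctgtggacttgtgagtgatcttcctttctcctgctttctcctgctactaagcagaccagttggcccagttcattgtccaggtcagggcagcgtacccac

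The Fanci window held 1 match to TTCCCGC, read on the opposite strand near its 3′ end. The Fanca window held 2 CCAAT matches and the Fancl window held no match. Across the 9 members, 4 promoters held TTCCCGC (Fancb, Fancg, Fanci and Fancm), 6 held CCAAT and 0 held TTTGAA. In all 32851 windows of this length, the shares were 4.60%, 37.4% and 17.9%. The motifs were chosen with the member sequences known, so nothing is read from the member counts beside these shares. The member windows had 47.0% to 63.3% G and C, against a median of 52.7% over all windows, and Fancl was the lowest. The letter pair CG, which TTCCCGC contains, occurred 3 times in Fancl and 13 to 26 times in the other members. Its median over all windows was 7. A match describes letters in a window and is not a measured binding site.

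The arrays detected similar numbers of probes, but 1 was dimmer. Of 45281 probes on each, 16496 to 18451 (36.4% to 40.7%) were detected, fewest on DOCK8-deficient array 2. The median scanner signal was 183 on that array and 212 to 235 on the others. Scanner signals quoted below carry that difference. Of the 22 member probes, 10 or 11 were detected on every array. With 3 arrays in a group, precision is limited by their number. Signals below are background corrected, quantile normalized and on a log2 scale unless they are called scanner signals. A difference is always DOCK8-deficient minus wild type. Dock8 itself did not separate the groups, with a difference of -0.01 ± 0.15 (SE) on its brightest probe (limma adjusted p = 0.99). Its other 2 probes read 0.37 and 0.41 (adjusted p = 0.59 and 0.70), so the grouping rests on the labels.

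Fanci encodes the partner of FANCD2 in the ubiquitinated pair. Its detected probe, ILMN_2731473, gave scanner signals of 346, 325 and 371 on wild type arrays 1, 2 and 3, and of 243, 200 and 231 on the DOCK8-deficient arrays. All 3 wild type values lay above all DOCK8-deficient values. On wild type arrays the probe was 1.33 to 1.54 times as bright as the dimmest detected probe of its array. On DOCK8-deficient arrays it was 0.946 to 1.07 times as bright as that limit. It was not detected on DOCK8-deficient array 3 (detection value 0.178), and on arrays 1 and 2 the detection value was 0.0150 and 0.0160. The low group therefore sat at the edge of what the array can measure.

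After normalization the probe read 7.62, 6.93 and 7.03 in the wild type samples and 5.65, 5.78 and 5.09 in the DOCK8-deficient ones. The means were 7.19 ± 0.37 and 5.51 ± 0.37 (SD, n = 3 each), a difference of -1.69 ± 0.25 (SE, 95% interval -2.25 to -1.12), or 3.22-fold. These values chose the family, so they are given as a description and without a p. The interval makes no allowance for that choice, so it is no test of the difference. The size rests on the background correction: the ratio of mean scanner signals was 1.55, quantile normalization without background correction gave 1.44-fold, and the deposited log2 table gave 2.10-fold. The second Fanci probe, ILMN_1217479, annotated to a separate cDNA record, was detected on 0 of 6 arrays. Its scanner signals were 198 to 216 in wild type and 161 to 205 in DOCK8-deficient samples, all below the detection limit, and its normalized values of 4.73 ± 0.02 and 4.61 ± 0.03 (SD, n = 3 each) are background readings. The lower Fanci signal therefore rests on 1 probe.

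**Figure D1:**
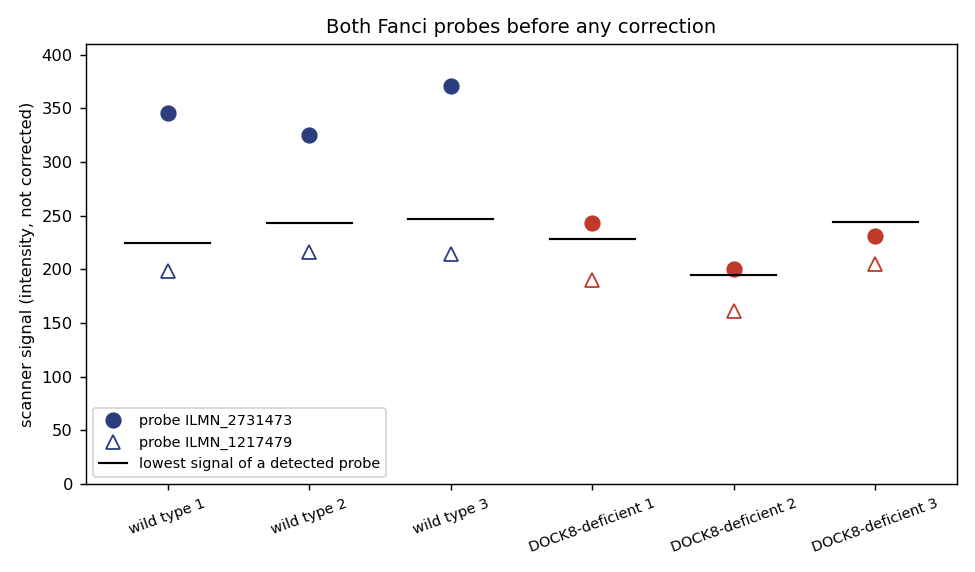
Scanner signal (intensity, linear axis from 0) of both Fanci probes on each of the 6 arrays, with a black line at the dimmest detected probe of that array. Probe ILMN_2731473 (filled circles) lies between 325 and 371 on wild type arrays and between 200 and 243 on DOCK8-deficient arrays, and ILMN_1217479 (open triangles) lies below the line on every array.

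Of the genes beside Fanci in the annotation, neither immediate neighbour could be compared. Rlbp1, a retinal binding protein gene, was detected on 0 of 6 arrays, and the long non-coding RNA Gm31653 had 0 named probes. Polg, the mitochondrial DNA polymerase gene, has an annotated span that overlaps that of Fanci (named here after the annotation was seen). It read 6.85 ± 0.22 in wild type and 6.88 ± 0.10 in DOCK8-deficient samples (SD, n = 3 each). The difference was 0.03 (95% interval -0.33 to 0.39, limma adjusted p = 0.97).

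The detected core ligase genes differed less than Fanci, which was chosen for the size of its difference. Fancl, the catalytic subunit, was read by 4 probes detected on all 6 arrays. Probe ILMN_1255562 read 8.23, 8.38 and 8.11 in wild type samples and 8.27, 8.25 and 8.51 in DOCK8-deficient samples, a difference of 0.11 ± 0.15 (SE, 95% interval -0.23 to 0.44, limma adjusted p = 0.86). Probe ILMN_2740285 read 7.90, 7.91 and 7.90 against 7.98, 8.28 and 7.85, a difference of 0.13. In both probes the groups overlapped. The remaining pair, ILMN_1247125 and ILMN_2459979, differed by 0.04 and -0.05. The 4 probes are annotated to the same transcript record, and the lowest bound of their 95% intervals was -0.51. A further Fancl probe, ILMN_2552119, annotated to a separate cDNA record, was detected on 0 of 6 arrays.

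Fance, which encodes the subunit that contacts FANCD2, read 6.82, 7.41 and 7.18 in wild type samples and 6.63, 7.03 and 7.53 in DOCK8-deficient samples. The groups overlapped, and the difference was -0.07 ± 0.25 (SE, 95% interval -0.66 to 0.51, limma adjusted p = 0.95). Fancm, the DNA translocase that recruits the core complex, had 5 probes annotated to the same transcript record. Of these 1 was detected, ILMN_3009719. It read 6.08, 6.43 and 5.98 in wild type samples and 6.19, 5.69 and 6.02 in DOCK8-deficient samples, again with overlap. Its difference was -0.20 ± 0.19 (SE, 95% interval -0.63 to 0.23, limma adjusted p = 0.78).

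Fancc, a structural subunit of the ligase, was read differently by its 2 detected probes. ILMN_3144458 read 6.54, 6.53 and 6.53 in wild type samples and 6.20, 6.24 and 5.83 in DOCK8-deficient samples, so the groups did not overlap. The scanner signals did overlap, at 264 to 322 and 212 to 274, and without background correction the difference was -0.13. After normalization it was -0.44 ± 0.15 (SE, 95% interval -0.79 to -0.09), with an unadjusted p of 0.020 and a limma adjusted p of 0.38. ILMN_2678661, annotated to another transcript record of the gene, read 6.08, 6.03 and 5.84 against 5.64, 6.25 and 6.30. Its groups overlapped, with a difference of 0.08 ± 0.20 (adjusted p = 0.93). The third Fancc probe, ILMN_3066293, is annotated to the same transcript record as ILMN_3144458 and was detected on 0 of 6 arrays.

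Fanca, which encodes a scaffold subunit of the ligase, read higher. Its detected probe ILMN_1238696, annotated to a cDNA record, read 5.26, 5.72 and 5.86 in wild type samples and 5.92, 6.17 and 6.78 in DOCK8-deficient samples, without overlap. The difference was 0.68 ± 0.25 (SE, 95% interval 0.09 to 1.26), with an unadjusted p of 0.028 and a limma adjusted p of 0.43. The scanner signals did overlap, with means of 260 in DOCK8-deficient and 249 in wild type samples, and without background correction the difference was 0.18. On wild type array 1 the probe was not detected (detection value 0.0908). Its other probe, annotated to the RefSeq transcript, was detected on 0 of 6 arrays and read 4.73 ± 0.07 and 4.76 ± 0.05 (SD, n = 3 each). The higher Fanca signal, like the lower Fanci signal, rests on 1 dim probe.

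**Figure D2:**
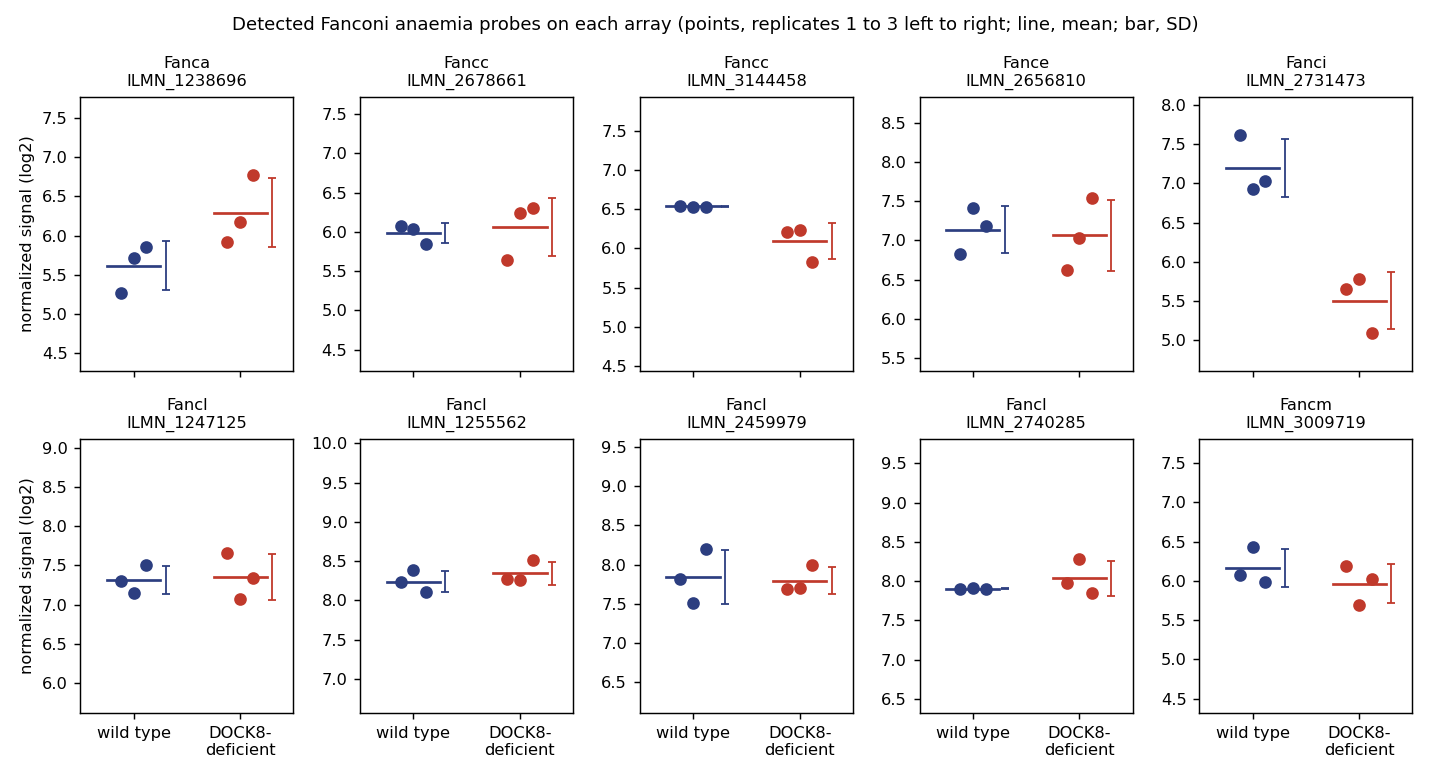
Normalized log2 signal of the 10 detected member probes on each array, wild type in blue and DOCK8-deficient in red, with the group mean (line) and SD (bar, n = 3). Each panel spans the same number of log2 units. The groups are apart in Fanci, in Fanca and in 1 of the 2 Fancc probes, and overlap in the other panels.

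Across the 10 detected probes, 5 read higher and 5 lower in DOCK8-deficient cells, and their median difference was -0.0049, against -0.01 over all 14559 named probes tested. Of the 9 probes other than Fanci, groups did not overlap in 2, against 15.9% of all probes tested, and in 1 of them, Fancc ILMN_3144458, the DOCK8-deficient values were the lower ones, against 7.98%. An unadjusted p under 0.05 was reached by 2 of the 9, against 10.1% of all probes. By limma's test with Benjamini-Hochberg adjustment over all probes, 0 of the 9 passed, with adjusted p from 0.38 to 0.97, against 0.213% of all probes (31, of which 19 rose and 12 fell, the falls being 0.0824%). The family was chosen through this same comparison, so nothing is read from these shares.

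Under all 14 alternatives, 0 of the member probes other than Fanci passed. Median scaling turned the split of all calls from 19 higher and 12 lower to 29 higher and 33 lower, and it changed the sign of 2 member probes near 0 (Fancc ILMN_2678661 to -0.03 and Fancl ILMN_1247125 to -0.06). Over all alternatives these 2 changed sign in 3 settings each. Fance (range -0.31 to 0.14) and Fancl ILMN_2459979 (range -0.22 to 0.13) changed sign in 2 each.

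Whether Fanci was lower alone can only be described, because Fanci was chosen for the size of its difference. None of the 9 other detected probes had a 95% interval that reached the Fanci difference of -1.69, and 0 of the 9 reached -1. Their lowest bound was -0.79, for Fancc ILMN_3144458. These 9 probes read Fanca, Fancc, Fance, Fancl and Fancm, and smaller differences in these genes lie within the intervals. Fanca entered only through the DOCK8-deficient group, where it is brighter, so the rule left it little room to read low. Wild type means were 5.61 for Fanca, 5.98 for Fancc ILMN_2678661 and 6.16 for Fancm. The undetected Fanci probe, a background reading, was at 4.61 in DOCK8-deficient samples. These dim probes had little or no room to read lower by as much as Fanci, so their intervals cannot show whether it was lower alone. Among all 14559 probes, 5 read as low as Fanci or lower, with Fanci itself among the 5.

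**Figure D3:**
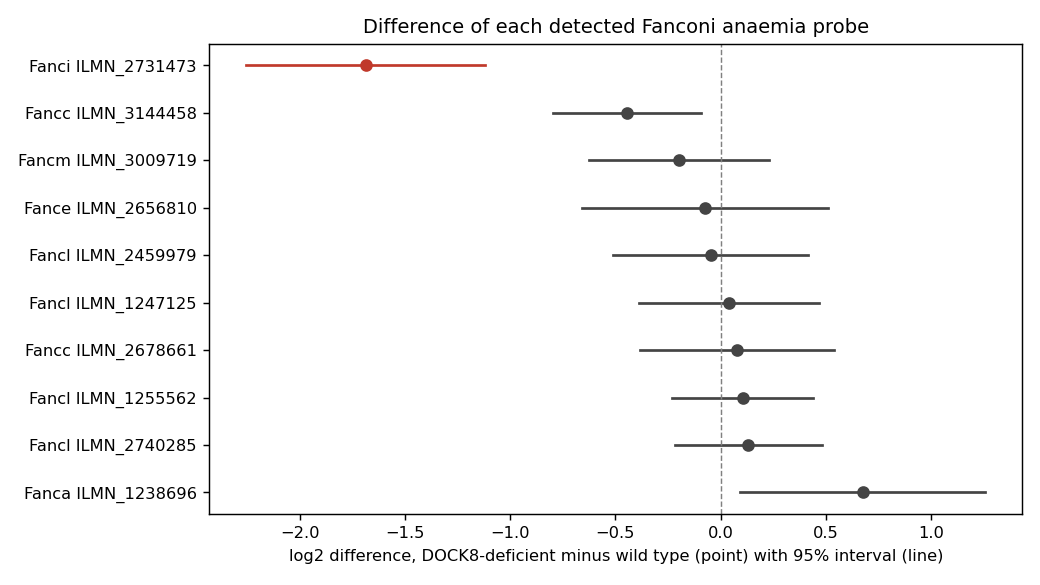
Log2 difference of each detected member probe, DOCK8-deficient minus wild type, with its 95% interval from limma, ordered by size. Fanci (red) spans -2.25 to -1.12, and the intervals of the 9 other probes (grey) lie between -0.79 and 1.26. The Fanci interval makes no allowance for the choice of the family by its difference.

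The members without a detected probe give no level to compare. Fancd2, the partner of Fanci, had 2 probes. ILMN_1240163 was detected on no array, and ILMN_3161617 was detected on DOCK8-deficient array 3 alone (detection value 0.0150), with 0.0759 and 0.0887 on wild type arrays 3 and 2. Fancg, a core subunit that binds FANCA, was detected on DOCK8-deficient array 1 and on wild type array 1. Fancb, an X-linked core subunit, had detection values from 0.409 to 0.879. These probes lie just outside the detection threshold or far from it, while Fancm ILMN_3009719 lay just inside (detection value 0.0310 on DOCK8-deficient array 2). Fanci and Fanca entered through the 1 group in which they were bright on all arrays, so the rule itself favoured the direction of these 2, whereas the other 8 detected probes were above background on all 6 arrays.

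Partners of the pathway were taken from a list of 13 genes that assist the core ligase or the ubiquitin cycle. Of 10 measured, 7 read higher and 3 lower, with a median of 0.18, and 0 passed limma's test (2 had an unadjusted p under 0.05). Faap24, which binds FANCM, read 6.92, 6.78 and 6.51 in wild type samples and 5.89, 6.43 and 6.18 in DOCK8-deficient samples. The groups did not overlap, and the difference of -0.57 ± 0.18 (SE, adjusted p = 0.35) was the lowest of all listed partner and repair genes. Its other detected probe read 0.22 (adjusted p = 0.84). Uhrf1, a crosslink sensor and DNA methylation cofactor, read 8.81, 9.21 and 9.27 against 9.61, 9.87 and 10.08, a difference of 0.76 ± 0.18 (SE, adjusted p = 0.20). It passed without background correction (adjusted p = 0.041) and with a trended robust prior (0.017).

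Genes that act after the ubiquitinated pair, namely nucleases, recombination factors and translesion polymerases, had 20 of 31 members measured. Of these 12 read higher and 8 lower, with a median of 0.05, 0 passed and 1 had an unadjusted p under 0.05. Polk, a translesion polymerase, differed by 0.38 ± 0.15 (SE, adjusted p = 0.46). Damage signalling genes had 16 of 20 measured, with 0 passing, 1 at an unadjusted p under 0.05 and a median of 0.04. The checkpoint kinase gene Chek2 differed by 0.44 and the clamp gene Rad9a by 0.35 (adjusted p = 0.34 and 0.50). Further probes of the same genes read nearer 0, with -0.11 for Chek2, and 0.01 and 0.19 for Rad9a.

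Other repair routes were read in the same way. In nucleotide excision repair, 13 of 16 genes were measured, with a median of 0.05, and 0 passed while 2 had an unadjusted p under 0.05, both lower. These were Xpc, the damage sensor, at -0.55 ± 0.13 (SE, adjusted p = 0.19), and its partner Cetn2 at -0.55 ± 0.15 (0.26). The second detected Xpc probe read -0.51 (adjusted p = 0.64). Base excision repair had 13 of 17 genes measured, a median of -0.06, 0 passing and 1 at an unadjusted p under 0.05, the glycosylase gene Neil1 at -0.53 ± 0.17 (adjusted p = 0.36). The polymerase gene Polb read 0.39 (0.50). Mismatch repair (5 of 8 measured, median -0.0038) and end joining (6 of 10, median 0.01) had 0 genes passing and 0 at an unadjusted p under 0.05. Their genes of smallest p were Mlh3 at -0.23, Pms1 at 0.19, Polm at -0.21 and Prkdc at 0.21.

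Because Fanconi genes are used in replicating cells, genes of cell division were set beside them. The S phase list had 21 of 22 measured genes higher in the absence of DOCK8, where 52.0% of all probes tested read lower. Its median was 0.31, while 0 passed limma's test and 6 had an unadjusted p under 0.05, against 10.1% of all probes. These counts use the brightest detected probe of each gene. Further detected probes of the listed genes read both ways, from -0.94 for Mcm4 to 0.84 for Gins2. Tk1, thymidine kinase, differed by 0.91 ± 0.20 (SE, adjusted p = 0.16), although its other detected probes read 0.19 and -0.08. Cdc6, a replication licensing factor, differed by 0.85 ± 0.25 (adjusted p = 0.31), Mcm2, a helicase subunit, by 0.42, the sliding clamp gene Pcna by 0.37 and the ribonucleotide reductase gene Rrm2 by 0.23 (0.40, 0.58 and 0.83). A summed linear signal took the brightest probe of all 26 listed genes with a probe, detected or not. It was 15253 to 18358 on DOCK8-deficient arrays and 13733 to 15738 on wild type arrays, so the groups overlapped.

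The mitosis list had 9 of 10 measured genes higher, with a median of 0.50, 0 passing and 5 at an unadjusted p under 0.05, against the same 10.1%. Cdk1, the mitotic kinase, differed by 0.57, Birc5, survivin, by 0.63 and Top2a, a topoisomerase, by 0.73 (adjusted p = 0.30, 0.33 and 0.34), and Mki67 was not measured here. Further detected probes of these genes read 0.31 for Cdk1, 0.23 and 0.48 for Birc5, and 0.56 for Top2a. Fanci read lower in the samples where the median S phase and mitosis gene read higher. Whether the 2 are related was not tested. Across the 9 partner, repair and division lists, 115 of 160 genes were measured and 0 passed. At an unadjusted p under 0.05, 14 were higher and 4 lower (10.1% of all probes reach it), and 0 read as low as Fanci. Among all 14559 probes tested only 5 did, Fanci included, and it was chosen for its difference. Dim listed genes, such as Rrm2 at 5.15 in wild type, had no room to. Nothing is read from that 0.

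**Figure D4:**
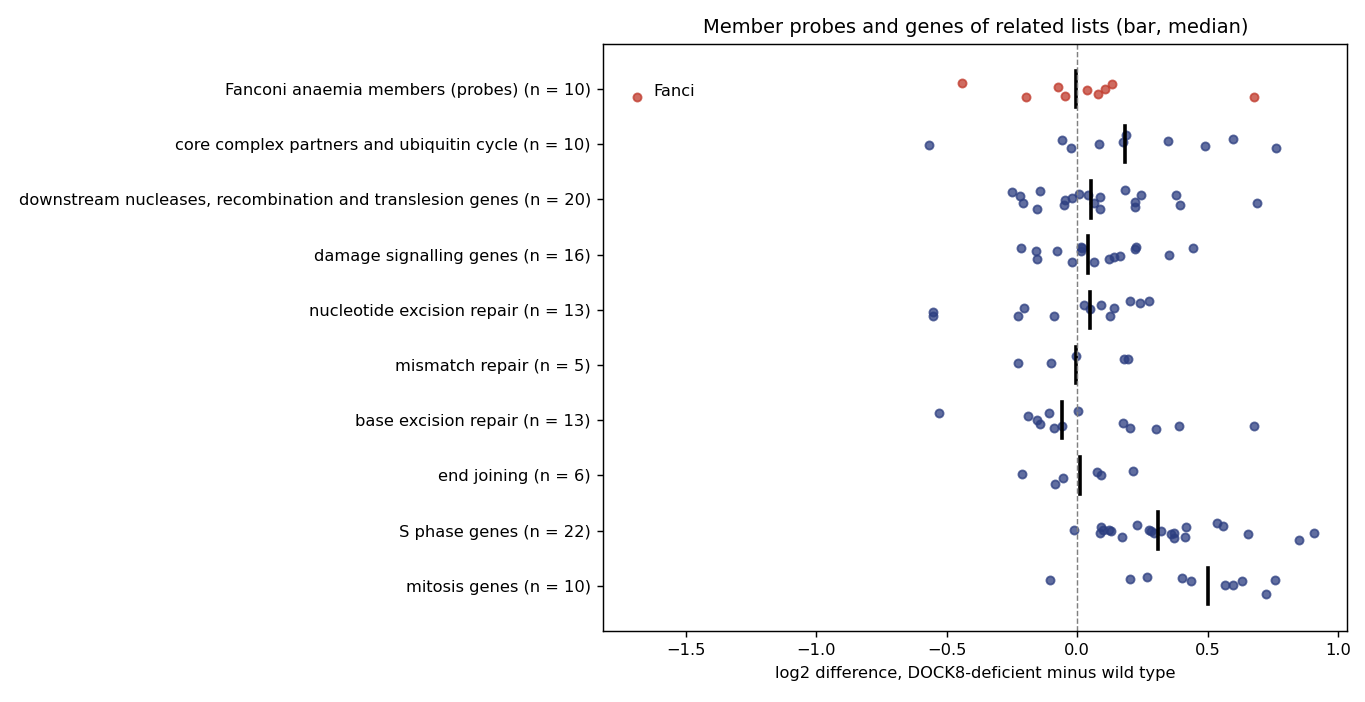
Log2 difference, DOCK8-deficient minus wild type, of the 10 detected member probes (red) and of the brightest detected probe of each gene in 9 related lists (blue), with the list median as a bar. The lowest listed gene is Faap24 at -0.57, and Fanci stands at -1.69.

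The 5 genes whose mean-centred profile over the 6 arrays lay closest to that of Fanci were Tlr7, Tgfbr3, Drosha, Dntt and Lrig1, with root mean square differences of 0.19, 0.22, 0.25, 0.29 and 0.29 log2 units. For the other detected member probes this distance was 0.66 to 1.32. The likeness describes 6 arrays in 2 groups, and any probe with a similar group difference comes close by it. Tlr7, a receptor for single-stranded RNA, read -1.51, Tgfbr3, the betaglycan co-receptor, -1.53, and Drosha, the nuclease of microRNA processing, -1.39.

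Dntt, the terminal transferase of immature thymocytes, was among these and is also a marker of double-positive thymocytes. Of 11 such markers 7 were measured, and all 7 read lower, with a median of -0.49, where 52.0% of all probes tested read lower. By limma's test 3 of the 7, Dntt among them, had an unadjusted p under 0.05, against 10.1% of all probes. Dntt read at least 2.42-fold lower (limma adjusted p = 0.044), a bound since it was detected on 0 of 3 DOCK8-deficient arrays. The other 6 did not pass, and of all probes tested 0.0824% passed as lower. Dntt was detected on all 3 wild type arrays, so it entered the test only through the group where it was brighter. Its likeness to Fanci in the same comparison had also picked it, so nothing is read from its call. The Dntt call was lost without the filter on dim probes (adjusted p = 0.053) and with any 1 array left out (0.081 to 0.168) other than DOCK8-deficient replicate 2 (0.049). A summed signal took the brightest probe of all 10 double-positive markers with a probe, detected or not. It was 2010 to 2363 on DOCK8-deficient arrays and 2380 to 2942 on wild type arrays. In bulk RNA, fewer cells of a type and less RNA per cell cannot be told apart, and the part of these cells in the Fanci signal was not tested. Markers of mature NKT cells had 5 of 8 measured genes higher and a median of 0.05, with summed signals of 46530 to 47958 and 46454 to 50806. Of B cell markers 3 of 7 were measured (median -0.02) and of erythroid markers 2 of 5 (median 0.37). Of myeloid and dendritic markers 4 of 10 were measured, with a median of 0.73 and 2 at an unadjusted p under 0.05 by limma, both higher. That count was 1 for the NKT markers and 0 for the B cell and erythroid markers. The summed myeloid signal took all 9 of these listed genes with a probe, detected or not. It was 523 to 625 on DOCK8-deficient and 379 to 443 on wild type arrays, and its part in the Fanca signal was not tested.

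Each array left out in turn moved the Fanci difference between -1.87 and -1.48, or 3.66-fold to 2.79-fold, and Fanci remained the lowest member probe each time. It was also the lowest without background correction, at -0.52 against -0.13 for the next member, and in the deposited log2 table, at -1.07 against -0.30. The same arrays and difference chose the family, so this rank was largely set in advance and nothing is read from it. With a stricter filter, a detection p under 0.01 on all 6 arrays, Fanci was left out and the 5 remaining member probes (Fance and Fancl) read from -0.07 to 0.13.

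**Figure D5:**
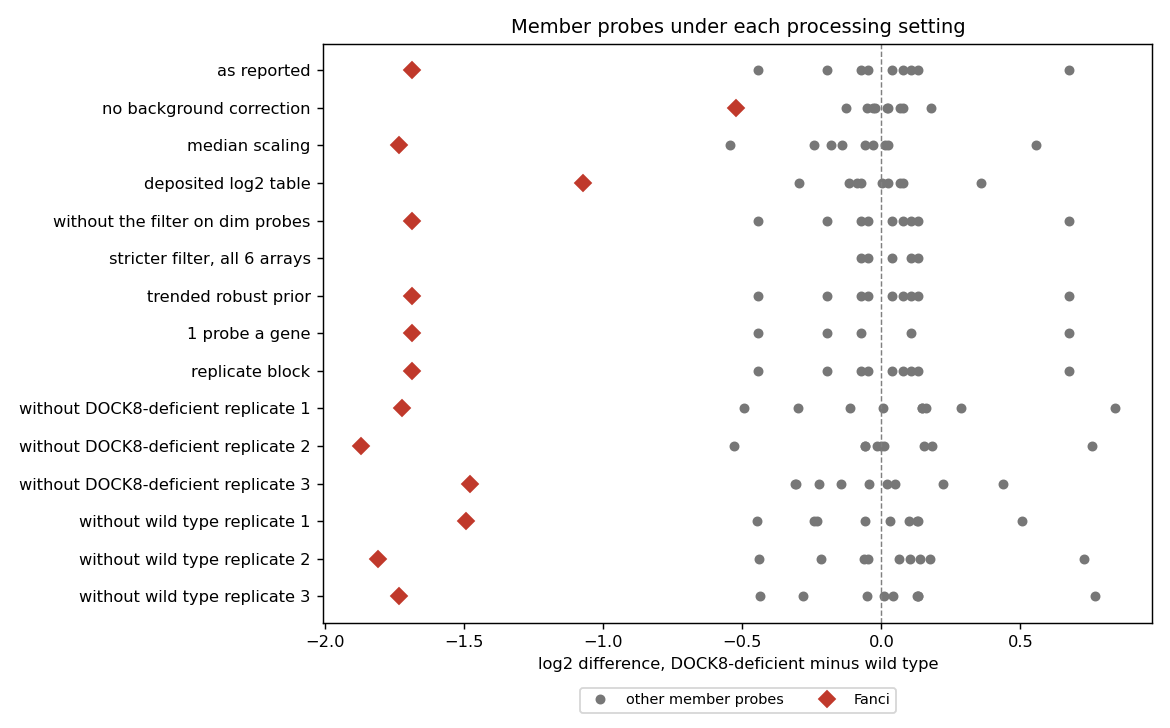
Log2 difference, DOCK8-deficient minus wild type, of the detected member probes under the reported processing and 14 alternatives. Fanci (red diamonds), whose difference chose the family, lies between -1.87 and -0.52 and is the lowest member wherever it was measured. The other probes (grey) lie between -0.55 and 0.84.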

How the data were processed

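RNA from 6 samples was measured on Illumina arrays after biotin labelling, per the labels. The deposited scanner table holds an intensity for each of 45281 probes per array, not background subtracted as its values show, and a detection p-value beside each, per the file headers. A second deposited table gives log2 values, and no source used here says how the authors normalized them.

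Background correction on control probes inferred from the detection values, then quantile normalization, used the neqc function (offset 16) of limma 3.58.1 in R 4.3.3. The test took the 14559 probes with 1 gene symbol (of 34885) and a detection p under 0.05 on at least 3 of the 6 arrays. Groups were compared across all of them with limma (lmFit and eBayes), with Benjamini-Hochberg adjustment at 0.05, and tested on simulated data. List genes used their brightest detected probe, and summed list signals the brightest probe of every gene with a probe, detected or not. Samples were grouped by title. The members, lists and named genes were chosen with earlier results of these data known. Named were every member, the genes past the threshold or the 2 of smallest p in each list, 5 fixed division genes, the neighbours of Fanci and the 5 nearest profiles, except 1 list gene that is not reported here. A fold for a gene undetected on every array of a group is a lower bound, set against the lowest detected value of those arrays. The alternatives are those of the closing section.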

Additional observations from a re-analysis of the deposited data

How the results depend on the processing

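The count of probes passing over the whole table was 31. It was 112 in the deposited log2 table, 155 without background correction, 62 with median scaling, 9 without the filter on dim probes, 62 with the stricter filter, 191 with a trended robust prior, and 1 to 17 with each of the 6 arrays left out in turn. The number of member probes passing, 0, became 1 (Fanci) without background correction, with median scaling, in the deposited table, with a trended robust prior and with 1 probe a gene. Nothing is read from that call, since the Fanci difference chose the family. The pathway list count of 0 became 1 and 2 without background correction and with the trended robust prior. The Fanci difference of -1.69 became -0.52 without background correction and -1.07 in the deposited table, and lay between -1.87 and -1.48 with 1 array left out. The median member difference became -0.10 with median scaling, where the median over all probes moved from -0.01 to -0.08, and -0.14 with 1 probe a gene, and lay between -0.095 and 0.076 with 1 array left out. Replicate numbers are shared by the groups, and the labels do not say what they pair. Deviations of same-numbered samples correlated at 0.03, -0.09 and -0.25, and those of differently numbered samples at -0.22 to 0.33. With 3 samples in each group, these values cannot decide whether same-numbered samples were handled together. With the replicate block 0 probes passed, and the Fanci difference stayed at -1.69. Dntt was not called with the block (adjusted p = 0.150). The named list genes, Polg and Dock8 kept their side of the threshold in each setting that measured them, except for Uhrf1 (adjusted p = 0.041 without background correction and 0.017 with the trended robust prior) and Tk1 (0.030 with the latter). No call is given for the other genes nearest to Fanci, which the same comparison selected. The cause of these changes was not tested. Signals near background limit Fanci, Fanca, Fancc and Fancm most.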
